A study of Glycine max with 54 samples.

Results

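Soybean varieties differ in many transcripts of the developing seed, and some of these differences hold whatever the age of the seed or the season. The 100 probe sets described here differed between the varieties Archer and Minsoy in one direction at every seed length and in both years sampled. Ranked by their smallest difference, they could still differ far more at some lengths or in one year than in the other. They were taken from 5710 probe sets that reached a log2 signal of 5 in at least 3 arrays and are annotated to 1 gene with only a LOC symbol, that is, a gene known by its database number. For each one the mean of 3 Archer arrays minus the mean of 3 Minsoy arrays was computed at 3 seed lengths in 2 years, giving 6 differences. In 763 probe sets all 6 had one sign, and these were ranked by the smallest of the 6 absolute differences; the 100 best ranked are the members. They stand for 89 of the 4296 genes those probe sets measure. In 56 members the signal was higher in Archer and in 44 it was higher in Minsoy. The parental differences chose the members, so they are given below as a description without a test.

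The series holds 54 Affymetrix arrays of whole developing seeds, 3 for each of 18 groups. Archer and Minsoy were sampled at 2, 3.5 and 5-6 mm in 2007 and again in 2008. A high yield line (genotype 6049-273) and a low yield line (genotype 6049-32), both recombinant inbred lines of their cross and alike in maturity per the design text, were sampled at the same lengths in 2007. Each kind of yield is thus represented by a single line, so nothing here speaks of yield beyond these 2 genotypes. In 2007 a line was 1 field row sampled 3 times per length, so a difference between the high and low yield lines cannot be told apart from one between their rows. In 2008 the 3 samples came from blocks planted 1 to 2 weeks apart, with seed of both rows pooled. The p-values use 1 spread per probe set shared by all 18 groups, from samples of a row in 2007 and from blocks in 2008. They do not measure the spread between rows of a recombinant line. All plants had regular field conditions and no treatment. For the third array of the low yield line at 3.5 mm the description names the high yield line instead; the title was followed.

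A recombinant inbred line comes from repeated selfing after a cross, so at most places in its genome it is fixed for the allele of one parent or the other. A difference between the parents that is set near the gene itself is therefore expected to reappear between lines that carry different parental alleles there, and to vanish between lines that carry the same one. A probe set is a group of short oligonucleotides designed from one reference sequence; its signal depends on how much transcript is present and on how well that transcript matches the probes, and in these arrays transcript amount and probe match cannot be told apart. In whole seeds, fewer cells of a type and less RNA per cell cannot be told apart either. The annotation used here gives no product for most of these genes, so most are named by their LOC number alone, with the member's rank where a gene has several members.

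The members' smallest parental difference ran from 5.28 on the log2 scale at rank 1 to 0.26 at rank 100. The last 3 inside were LOC100798303, LOC100777979 and LOC100305999, at 0.26 each. The first 3 outside had smallest differences of 0.25, 0.24 and 0.24 (LOC100305542, LOC100786194 and LOC100798871), so the boundary does not part distinct groups. Without any overlap between 9 Archer and 9 Minsoy arrays there were 23 members in 2007 (0.974% of all tested probe sets) and 42 in 2008 (1.15%). Since the rule used these arrays, nothing is read from those counts. For the remaining members at least 1 array of one variety lay within the range of the other in that year.

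**Figure D1:**
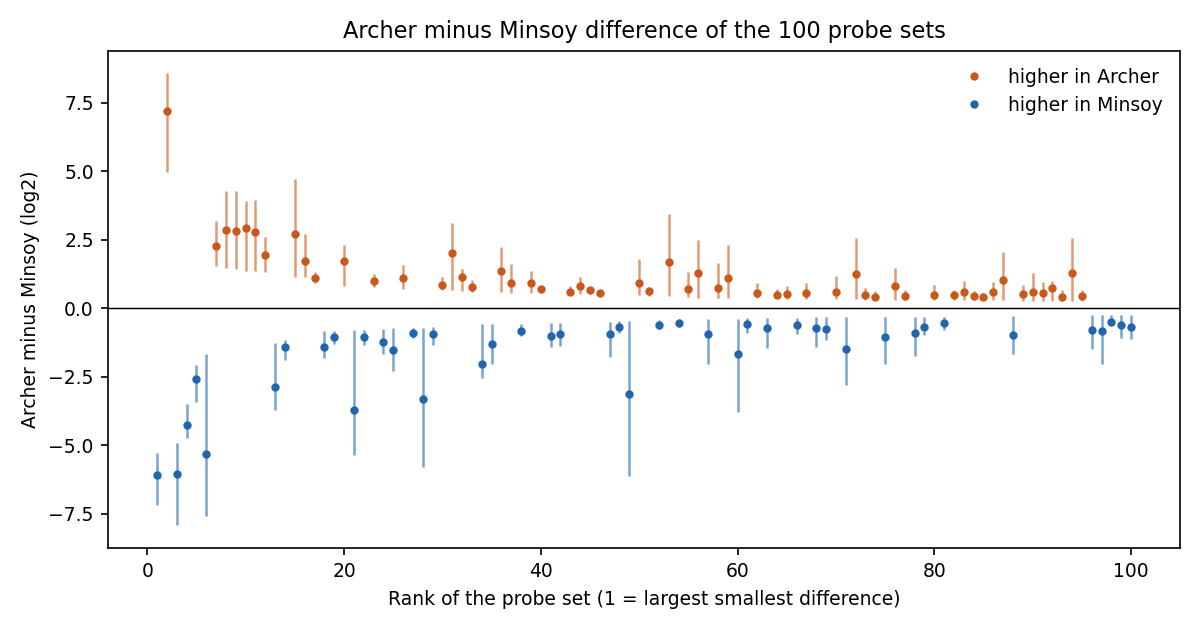
Archer minus Minsoy difference (log2, vertical axis) of the 100 members by rank (horizontal axis); points are the mean of the 6 differences, bars span their lowest and highest value, orange is higher in Archer and blue higher in Minsoy. The bars of the best ranked members reach 8.58 above and 7.92 below 0, and the bars of the last ranks end at 0.26 from 0.

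The best ranked gene was LOC100791698 on chromosome 7, in its member at rank 1. In 2007 its log2 signal in Archer ran from 3.37 through a median of 4.28 to 6.21, and in Minsoy from 9.82 through 10.28 to 10.69. In 2008 Archer ran from 2.97 through 4.11 to 4.84 and Minsoy from 9.94 through 10.31 to 10.60. The varieties never overlapped, and the Minsoy arrays stayed within 1 unit of each other at every seed length. A second member of the gene, at rank 14, was also higher in Minsoy, by 1.16 to 1.88. The gene's other tested probe sets differed far less, one by -0.66 to -0.15 and the other by -0.03 to 0.41, with 5 of 6 differences above 0. The probe sets of this gene thus gave parental differences of very unequal size.

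LOC100500577 on chromosome 18 held 3 members that pointed in opposite directions. The rank 2 member of LOC100500577 was high in Archer, with a median of 10.45 in 2007 and 9.45 in 2008, and lay at 1.96 in Minsoy in both years, the lowest value those arrays take. Only 2 Minsoy arrays rose above a log2 of 5: 2 mm replicate 2 of 2007 stood at 6.27 and 5-6 mm replicate 3 of 2007 at 8.88. The rank 6 member of LOC100500577 showed the reverse, with Minsoy medians of 9.78 and 9.07 and Archer medians of 2.74 and 2.00. Here 4 Archer arrays of 2007, 1 of them at 2 mm, 2 at 3.5 mm and 1 at 5-6 mm, stood between 7.66 and 10.18, inside the Minsoy range, and the Minsoy 5-6 mm replicate 3 of 2007 stood at 2.29. The rank 21 member, whose probe set name differs from that of rank 6 only in its ending, followed it with Minsoy medians of 7.67 and 7.80 against 4.03 and 2.95 in Archer. Which variety appeared high for this gene thus depended on the probe set. A difference from a value at the lowest level of the scale is not exact.

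LOC547605 on chromosome 19 behaved likewise. The rank 4 member of LOC547605 had medians of 1.99 and 1.96 in Archer and of 6.19 and 6.59 in Minsoy, with no overlap in either year. The rank 10 member of LOC547605 had medians of 9.35 and 9.27 in Archer and of 6.83 and 5.51 in Minsoy, also without overlap. Of the gene's other tested probe sets, a pair was slightly higher in Minsoy, by means of 0.31 and 0.41, and another was slightly higher in Archer, by a mean of 0.10. The fourth had a mean Archer minus Minsoy difference of -1.20, from -2.16 to 0.04, and did not keep one sign. LOC100500577 and LOC547605 were the 2 genes of 89 with members in both directions.

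Further members with large differences in favour of Minsoy were those of LOC100819853 on chromosome 20, at ranks 3 and 28. The former had Archer medians of 2.37 and 5.11 against Minsoy medians of 9.93 and 11.18. The latter had Archer medians of 2.72 in 2007 and 8.32 in 2008 against Minsoy medians of 8.44 and 10.38, so that Archer minus Minsoy lay between -5.80 and -4.49 in 2007 and between -2.47 and -0.71 in 2008. Levels of the 2 years appear to have been normalized apart, so only the differences within a year are set side by side. LOC100817540 was higher in Minsoy by 2.08 to 3.42 with no overlap, while its other tested probe set did not keep one sign. LOC100500257 was higher by 1.25 to 3.71 and LOC100817983 by 0.84 to 1.82.

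Among members higher in Archer, LOC100791780 differed by 1.54 to 3.18 and LOC100785654 by 1.48 to 4.28. The other tested probe sets of LOC100785654 differed by means of only 0.24, 0.26 and 0.18. LOC100802114 differed by 1.45 to 4.27, LOC100778550 by 1.35 to 3.96 and LOC100500236 by 1.15 to 4.73. LOC100797229 was among the brightest, with Archer arrays from 11.11 to 12.81 in 2007 and from 11.36 to 12.77 in 2008, against Minsoy medians of 10.14 and 10.11. Its probe set name ends in _x_at, which marks probes that may also match other transcripts, as the ending _s_at does; 13 of the 100 members carry such an ending. The gene's 3 other tested probe sets did not keep one sign over the 6 differences. LOC548026 differed by 1.14 to 2.71, LOC100817128 by 0.92 to 1.33 and LOC100807362 by 0.81 to 2.29. The other tested probe set of LOC548026 did not keep one sign.

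Several probe sets for a gene did not always tell the same story. Of the 89 genes, 9 had more than 1 member, 20 members in all. Besides the members, 53 other tested probe sets belonged to 29 of the genes. Of the 49 whose gene had members in 1 direction, 13 kept the members' sign in all 6 differences, 0 kept the opposite sign and 36 did not keep one sign. LOC100784654 on chromosome 8 held 3 members in 1 direction: its members at ranks 33, 44 and 62 were higher in Archer by means of 0.78, 0.81 and 0.57.

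A few members have an older name in the gene table, and they are listed for that name. LOC732543 is gTMT2, a gamma-tocopherol methyltransferase, the enzyme that turns gamma-tocopherol into alpha-tocopherol, the most active form of vitamin E. Its members at ranks 19 and 29 were higher in Minsoy by 0.81 to 1.30 and by 0.68 to 1.33. In 2008 the rank 19 member ran from 9.45 through 9.73 to 10.10 in Archer and from 10.46 through 10.77 to 11.24 in Minsoy, without overlap. The remaining 5 named genes lie outside the rule that chose the genes described here and were added after their values had been seen. LOC100796533 (GAD, a glutamate decarboxylase, which makes gamma-aminobutyrate) was higher in Minsoy by a mean of 1.03. LOC100170714 (GmNAC109, of the plant NAC family of transcription factors) was higher in Minsoy by a mean of 0.94, and LOC100526991 (GSTZ2, a glutathione transferase of the zeta class) by 0.63. The tau class glutathione transferase LOC547583 (GSTU18) had 2 members, higher in Minsoy by means of 1.68 and 0.82. LOC100785104 (Rab7p, a small GTPase of vacuolar traffic) was higher in Archer by a mean of 0.64. The other tested probe sets of GmNAC109 and Rab7p did not keep one sign over the 6 differences.

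The recombinant lines were not used to rank the members, but the signal filter counted all 54 arrays. LOC547692 passed that filter only through high yield arrays. The question asked of the recombinant lines is whether the same probe sets separate the high from the low yield line, and in which direction. The arrays themselves have to be described first. A line score was computed per array from 100 other probe sets, chosen by the same parental rule. These are not annotated to 1 gene with a LOC symbol, though some may match several genes. The score is the mean of those higher in Archer minus the mean of those higher in Minsoy. It lay between 2.83 and 3.72 in 8 of 9 high yield arrays and between 0.43 and 1.05 in 8 of 9 low yield arrays. The array labelled high yield line 5-6 mm replicate 1 scored 0.85, and the array labelled low yield line 2 mm replicate 1 scored 2.92, each within the range of the other line. The latter also had a stage score of 4.01, against -5.51 and -4.76 in the other low yield 2 mm arrays. The Minsoy arrays of 2007 were also uneven, from -3.09 to -0.94, with 5-6 mm replicate 3 highest and 3.5 mm replicate 2 next at -1.01, against 2.07 to 3.10 in Archer. That highest Minsoy array lay nearer to Archer in 40 of 100 members; 91 of the members were kept without it and 98 without the next. Results on the recombinant lines are given with all 18 arrays and without the 2. Leaving them out was decided after seeing the data and rests on values like those tested, so the counts without them are no added support.

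**Figure D2:**
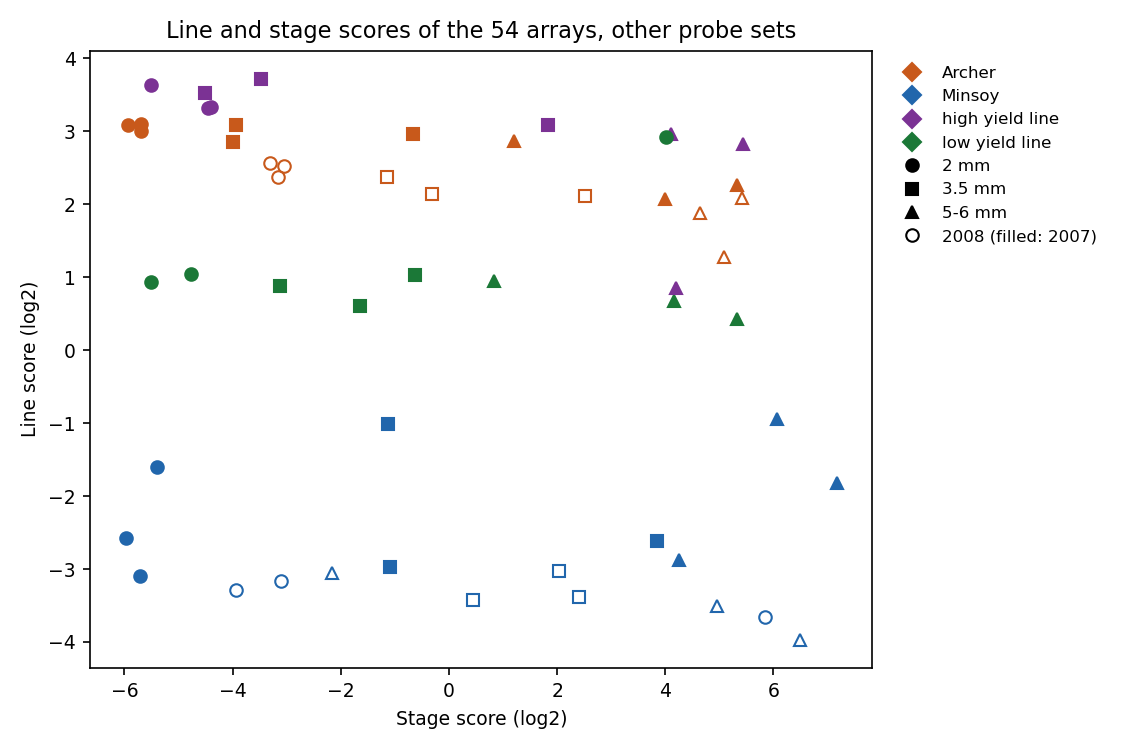
Line score (vertical axis, log2) against stage score (horizontal axis, log2) of the 54 arrays; colour gives the line, symbol shape the labelled seed length, and open symbols are 2008. The high yield arrays lie between 2.83 and 3.72 and the low yield arrays between 0.43 and 1.05, except 1 array of each that lies in the range of the other.

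With all arrays, 36 of 100 members differed between the high and low yield lines in the mean of the 3 seed lengths (limma, all 26482 tested probe sets, adjusted p under 0.05), against 5.37% of all tested probe sets. In all 36 the direction was that of the parents: where Archer was higher than Minsoy, the high yield line was higher than the low yield line (22 members), and where Minsoy was higher, the low yield line was (14 members). Without the 2 arrays 40 members were called (6.19% of all), again all in the parental direction, and the 36 were among them. By gene these are 30 and 34 of 89. The 36, the 22, the 40 and both gene counts include LOC547692. That gene passed the signal filter only through high yield arrays, so its call is no independent result. Counting every member whether called or not, the difference had the parental sign in 85 of 100. The same count was not made over the other tested probe sets, so nothing is read from the 85. No member had 9 high yield arrays clear of the 9 low yield arrays (0.00378% of all tested probe sets did); without the 2 arrays 18 members had, all in the parental direction (0.865% of all).

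The largest called differences were again of opposite sign within a gene. For the rank 2 member of LOC100500577 the high yield line ran from 1.85 through a median of 10.14 to 11.32 and the low yield line from 1.82 through 1.88 to 8.85. The only high yield array below 5 and the only low yield array above it were the 2 named above. The difference was 6.33 (SE 0.78, adjusted p = 4.11e-07) and 7.73 without them (adjusted p = 3.34e-12). The rank 6 member of the same gene had medians of 2.22 in the high yield line and 10.73 in the low yield line, a difference of -6.79 (SE 1.19, adjusted p = 0.000162). The rank 21 member differed by -5.21 (SE 0.84, adjusted p = 4.5e-05). Each of the 3 was separated in the direction the parents show, high yield line like Archer and low yield line like Minsoy.

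In LOC547605, the rank 4 member lay between 2.03 and 2.18 in 8 high yield arrays and between 6.12 and 8.56 in 8 low yield arrays. The high yield 5-6 mm replicate 1 stood at 7.08 and the low yield 2 mm replicate 1 at 2.14. The difference was -4.18 (SE 0.52, adjusted p = 4.96e-07) with all arrays. The rank 10 member of the same gene had medians of 11.61 and 8.57 and differed by 2.88 (SE 0.39, adjusted p = 2.37e-06). For the rank 3 member of LOC100819853 the medians were 4.08 in the high yield line and 11.47 in the low yield line, with a difference of -5.45 (SE 0.81, adjusted p = 1.25e-05). The second member of that gene, at rank 28, differed by -2.35 (SE 0.51, adjusted p = 0.00237); 8 high yield arrays lay between 6.85 and 7.21, while low yield arrays were at 7.54 and 8.17 at 2 mm and at 12.30, 12.94 and 12.38 at 5-6 mm.

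Among members higher in Archer, LOC100778550 differed by 3.85 between the lines (SE 0.56, adjusted p = 8.23e-06), with medians of 9.31 and 4.13. LOC100785654 had medians of 7.79 and 3.24 and differed by 3.60 (SE 0.49, adjusted p = 2.32e-06). The gene's other tested probe sets differed by 0.236, 0.619 and 0.309 and were not called. LOC100500236 differed by 3.46 (SE 0.50, adjusted p = 8.69e-06). LOC100791780 differed by 2.98 (SE 0.33, adjusted p = 4.87e-08), and all 3 probe sets of LOC100784654 were called, at 0.70, 0.78 and 0.47. With the recombinant arrays alone these 3 lost the call, as did LOC100817540 and the rank 28 member of LOC100819853. Smaller differences in favour of the low yield line were called for LOC100817540 (-1.86), LOC100306246 (-1.67), LOC100802479 (-1.30) and LOC100305415 (-1.07). The other tested probe set of LOC100817540 differed by 0.446 and was not called. Of the genes with an older name, the members of GmNAC109 (-0.83, SE 0.24, adjusted p = 0.0295) and Rab7p (0.43, SE 0.11, adjusted p = 0.0121) were called. The other tested probe sets of these genes were not called, at 0.105, 0.023 and 0.055 for GmNAC109 and -0.117 for Rab7p. GAD was called by limma without the 2 arrays (-0.79, adjusted p = 0.0149) but not with them (-0.62, adjusted p = 0.0675). The members of GSTZ2 (0.01, adjusted p = 0.983) and GSTU18 (-0.48 and -0.16, adjusted p = 0.772 and 0.935) were not called. Neither were those of gTMT2 (-0.45 and -0.37, adjusted p = 0.31 and 0.353).

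**Figure D3:**
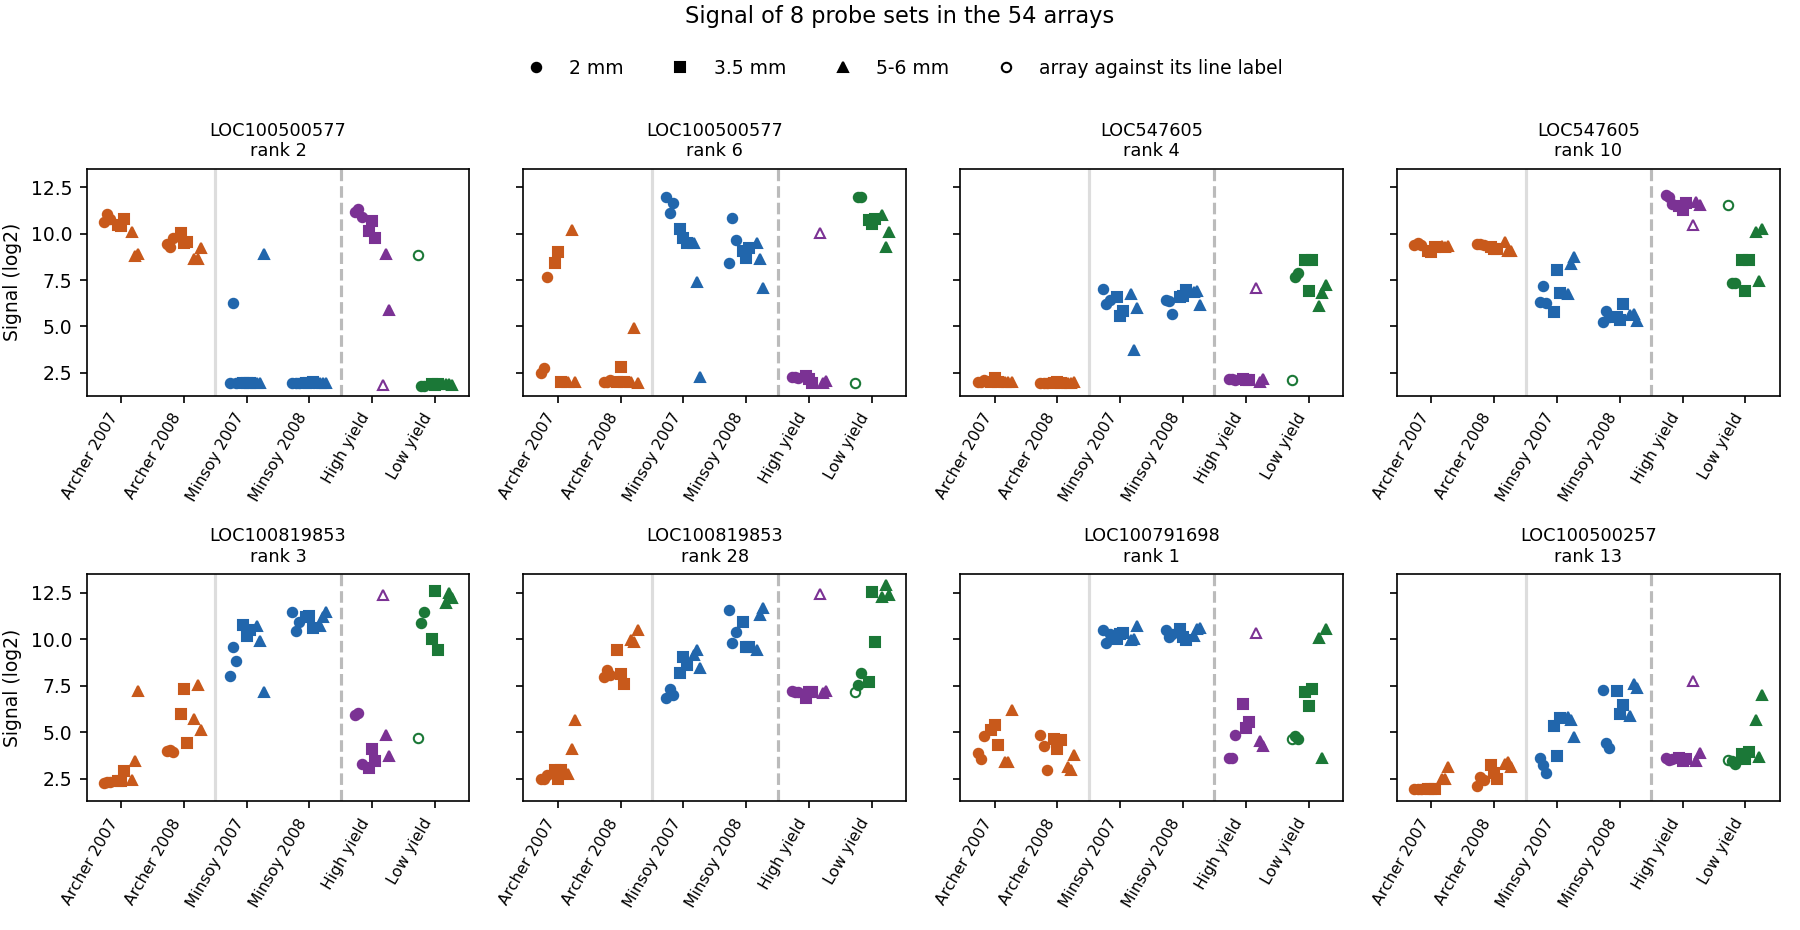
Log2 signal (vertical axis) of 8 probe sets in every array, by line and year (horizontal axis); symbol shape gives the seed length, and open symbols mark the 2 arrays whose line score lies in the range of the other line. In the rank 2 member of LOC100500577 and the rank 10 member of LOC547605 most Archer arrays lie above Minsoy and most high yield arrays above the low yield line, in the rank 6 member of LOC100500577, the rank 4 member of LOC547605 and the rank 3 member of LOC100819853 most arrays lie the other way round, and in the rank 1 member of LOC100791698 the arrays of the recombinant lines overlap.

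A large parental difference did not ensure a difference between the recombinant lines. Among the 20 best ranked members 8 were called with neither set of arrays. LOC100802114, whose parental differences averaged 2.82, had medians of 8.76 in the high yield line and 8.20 in the low yield line and a difference of 0.19 (SE 0.56, adjusted p = 0.939). LOC100797229 had medians of 12.36 and 12.12 and a difference of 0.11 (SE 0.20, adjusted p = 0.883). LOC548026 differed by -0.49 (SE 0.47, adjusted p = 0.734), the rank 14 member of LOC100791698 by 0.16 (SE 0.19, adjusted p = 0.806) and LOC100500257 by -0.17 (SE 0.42, adjusted p = 0.925). The others were LOC100817983 (-0.51), the rank 19 member of gTMT2 (-0.45) and LOC100807362 (0.43). A p above the threshold does not show that the lines are alike, and for LOC548026 the SE alone approaches 0.5.

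The top ranked member, of LOC100791698, was uneven across the recombinant arrays. At 2 mm the high yield line stood at 3.62, 3.60 and 4.86 and the low yield line at 4.64, 4.78 and 4.61. At 3.5 mm the values were 6.54, 5.21 and 5.52 against 7.17, 6.39 and 7.33. At 5-6 mm high yield replicate 1 stood at 10.36 and low yield replicates 1 and 3 at 10.08 and 10.56, with the other 5-6 mm arrays of both lines below 5, so that 3 arrays of the longest seeds, 1 of the high and 2 of the low yield line, stood above all other recombinant arrays. The same 3 arrays held the highest values of LOC100500257, at 7.74, 5.65 and 7.02, while the other 15 lay between 3.27 and 3.93. The line difference of the top ranked member was -1.19 (SE 0.62, adjusted p = 0.364) with all arrays and -1.86 (SE 0.56, adjusted p = 0.0351) without the 2 arrays.

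Calls thinned out with rank. In successive blocks of 20 members, 11, 11, 8, 4 and 2 were called, while the smallest parental difference fell from between 0.81 and 5.28 in the first block to between 0.26 and 0.30 in the last. For the 40 members called without the 2 arrays, the high minus low difference divided by the mean parental difference had a median of 1.09, from 0.31 to 2.03. For the 60 others the median was 0.22, from -0.86 to 0.92. These ratios describe size only, because the calls themselves depend on the size of the difference between the recombinant lines. The median absolute difference between the lines was 0.43 over the members and 0.12 over all tested probe sets.

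**Figure D4:**
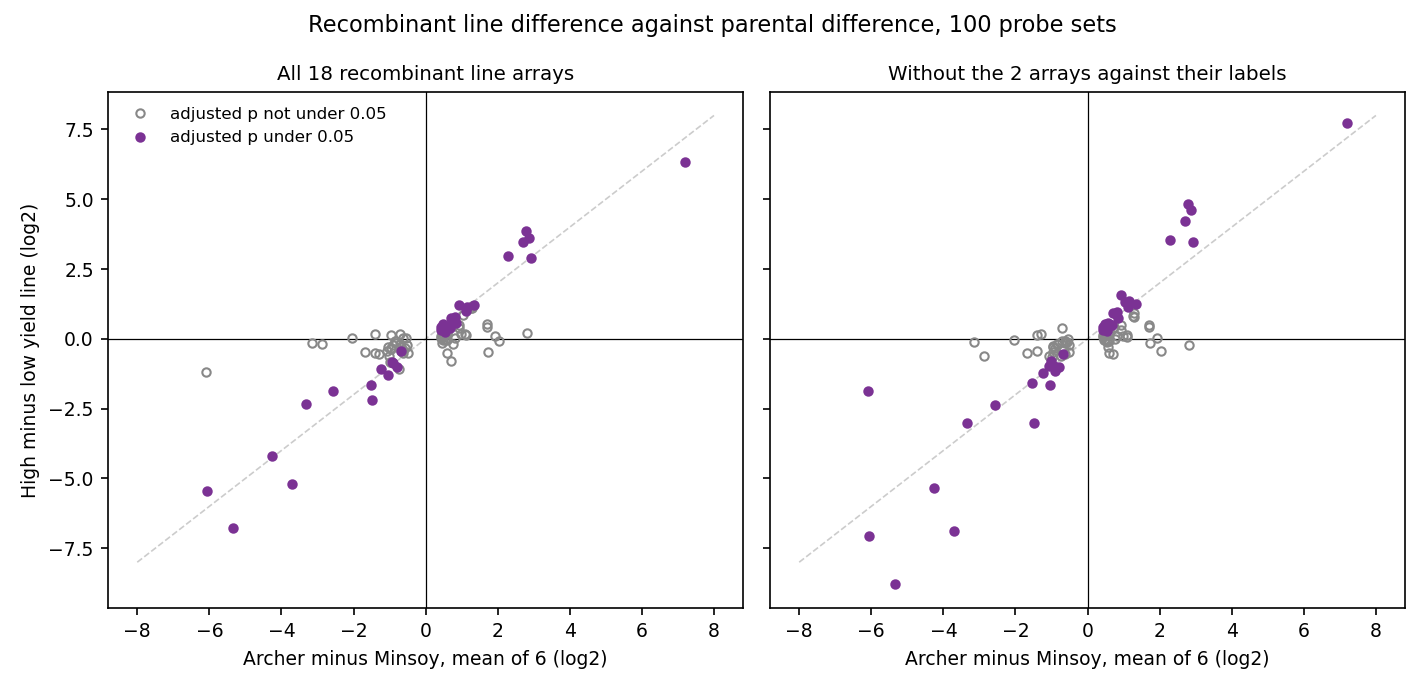
High minus low yield line difference (vertical axis, log2) against the mean parental difference (horizontal axis, log2) for the 100 members, with all 18 recombinant line arrays (left) and without 2 (right); filled points have an adjusted p under 0.05 and the dashed line marks equality. All filled points lie in the quadrants where both differences share a sign, while open points reach at most 1.19 from 0 with all arrays, some at parental differences beyond 2.

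The members were set against probe sets that met weaker or parallel forms of the rule. Of the other 663 LOC probe sets with one sign in all 6 parental differences, 50 were called (7.54%), 47 in the parental direction and 3 in the opposite. Of 100 best ranked probe sets without a LOC symbol, 39 were called, 38 in the parental direction. Over all 3573 tested probe sets with one parental sign, 399 were called, 380 in the parental direction and 19 in the opposite. The predominance of the parental direction was therefore shared by probe sets outside the 100 members.

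The number of members called differed between the seed lengths and with the arrays used. At 2 mm 23 members differed between the lines (7.87% of all tested probe sets), 22 in the parental direction and 1 in the opposite. The exception, LOC100306504, singled out after its value was seen, was higher in Archer by a mean of 0.59 and lower in the high yield line by -1.06 (SE 0.32, adjusted p = 0.0344); without the 2 arrays its adjusted p was 0.188. At 3.5 mm 21 were called (1.66% of all), all in the parental direction. These counts moved with the fit: the recombinant arrays alone gave 5 at 2 mm and 1 at 3.5 mm, array weights gave 64 (7 in the opposite direction) and 45, and the 2 mm count was 8 without high yield 2 mm replicate 1, 11 without its replicate 2, and 14 and 13 without low yield 2 mm replicates 2 and 3. At 5-6 mm 0 members were called by limma, as were 0 of all probe sets (0.0%). An unadjusted p under 0.05 was found for 21 members. The share of all tested probe sets is not given beside it, so nothing is read from the 21. Without the 2 arrays, 24, 24 and 16 members were called at the 3 lengths (4.36%, 2.05% and 1.05% of all), all in the parental direction. At 5-6 mm, leaving out only the high yield 5-6 mm replicate 1 gave 9 called members and leaving out only the low yield 2 mm replicate 1 gave 3. Counts from other fits and from leaving out single arrays stand without a share of all tested probe sets. They describe only how the calls moved.

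Without those arrays 14 members were called at every seed length, and with all arrays 0 were, as 0 probe sets were called at 5-6 mm. The share of all tested probe sets called at every length was not counted, so nothing is read from the 14. These 14 members include the 3 members of LOC100500577, both of LOC547605, the rank 3 member of LOC100819853, LOC100817540, LOC100791780, LOC100785654 and LOC100778550. The rank 2 member of LOC100500577 differed by 9.32, 8.32 and 5.54 at 2, 3.5 and 5-6 mm, and the rank 3 member of LOC100819853 by -6.11, -7.16 and -7.95. Such changes of size with length were tested for each member: 1 member had differences between the lines that varied over the 3 lengths (0.827% of all tested probe sets did). It was LOC547692, which lies outside the naming rule and was singled out by this test. It reached a log2 of 5 in only 4 arrays, the 3 high yield arrays at 3.5 mm and 1 of Archer. It thus passed the filter only through high yield arrays. Its tests between the lines rest partly on the values that admitted it, so they are no independent result. This holds also for its place among the 36 members called over all lengths. With a filter at log2 7 it was not tested. With the recombinant arrays alone 0 members were called by limma for a difference by length (6 at an unadjusted p under 0.05). The high yield arrays stood at 4.63, 4.55 and 3.88 at 2 mm, 6.08, 5.32 and 5.95 at 3.5 mm and 3.32, 3.42 and 3.48 at 5-6 mm. The low yield arrays stayed between 2.97 and 3.61, and the groups overlapped only in the longest seeds. The line difference was 1.12, 2.37 and 0.15 in that order (adjusted p = 0.00218 for a difference by length).

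**Figure D5:**
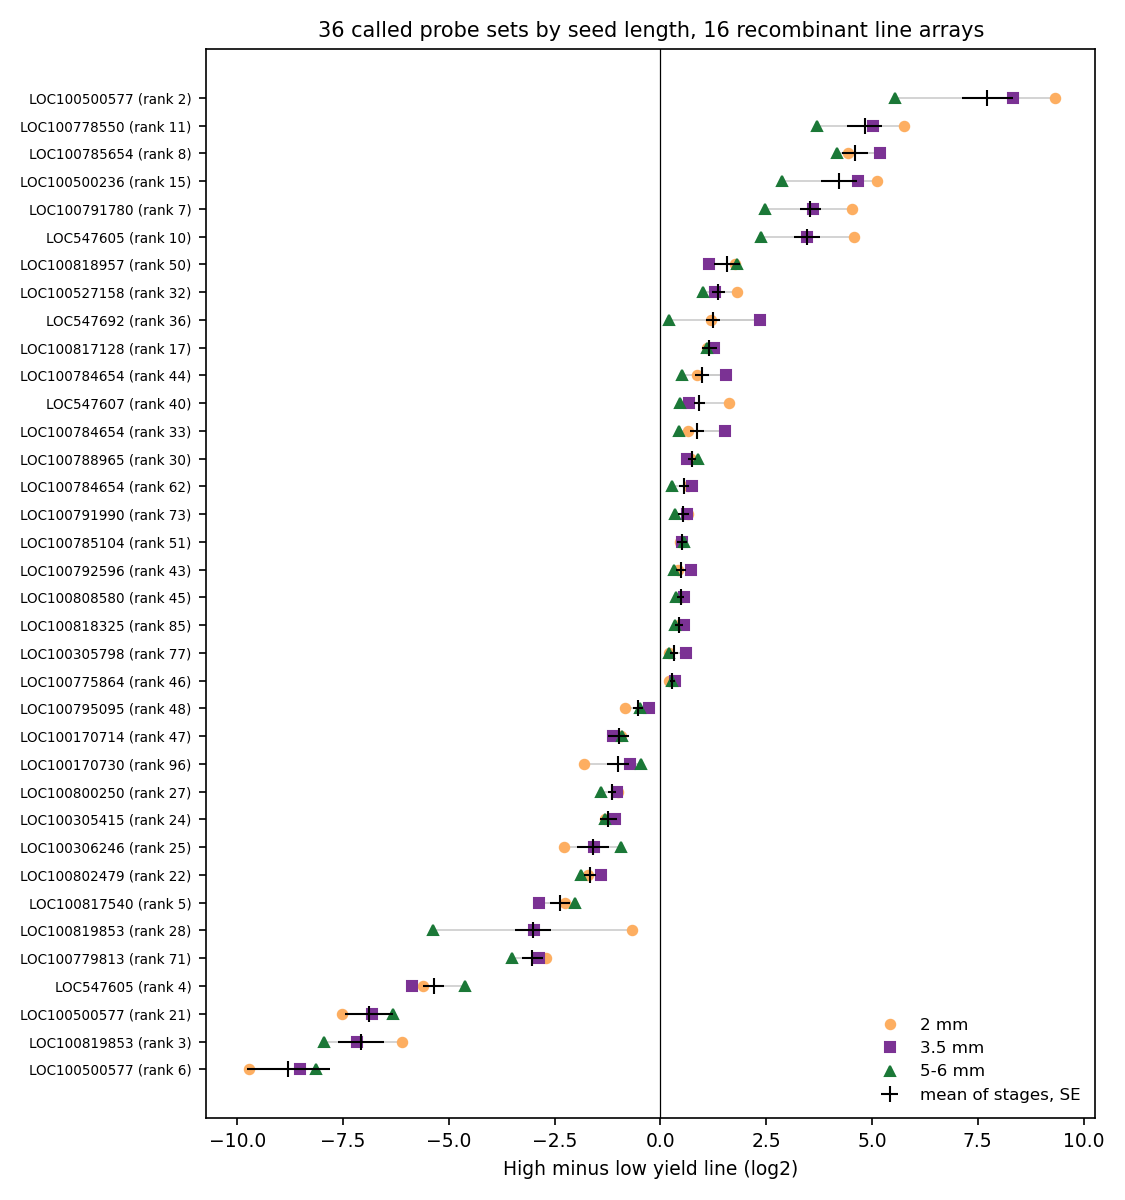
High minus low yield line difference (horizontal axis, log2) of the 36 members called with all arrays, computed without the 2 arrays that score like the other line; symbols give the 3 seed lengths and the black mark with its bar the mean over lengths and its SE. The members of LOC100500577 span from -9.73 to 9.32, and in each member the 3 lengths fall on the same side of 0.

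The position of the genes gives a second view of the same calls. The members lie on 20 chromosomes, with 12 genes on chromosome 20, 7 each on chromosomes 6 and 18, and 6 each on 9, 13 and 17 (gene order of the assembly Glycine_max_v4.0). A distance of at most 60 genes to the next, a limit chosen after seeing the data, gave 11 groups of neighbouring member genes with 24 genes. In 2 groups every gene was called without the 2 arrays, namely LOC100778550 and LOC100500236 on chromosome 6 and LOC100785104 and LOC100791990 on chromosome 20. In 6 groups no gene was called, among them LOC100795117, LOC100797229 and LOC100802032 on chromosome 11, and in 3 groups the calls were mixed. Neighbours did not always point the same way between the parents: 7 of the 11 groups held both a gene higher in Archer and one higher in Minsoy. Neighbouring genes are not independent of each other, and no test was made of these groups.

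The members also changed during seed growth, a contrast the rule did not use directly. Between 2 mm and 5-6 mm seeds, averaged over all lines and years, 37 members rose and 28 fell, 65 in all, against 62.5% of all tested probe sets (25.5% rose and 37.0% fell). The share of members called was thus near that of the array as a whole. The largest rises were those of LOC100805219 (3.85, SE 0.44), LOC100306246 (2.87, SE 0.25), LOC100794124 (2.17, SE 0.51) and the rank 28 member of LOC100819853 (2.06, SE 0.36). The rank 56 member of LOC100792205 fell by 3.48 (SE 0.44), LOC100500205 fell by 3.05 (SE 0.34), LOC100802114 fell by 2.85 (SE 0.40) and LOC100306181 fell by 2.25 (SE 0.36). Of the members described above, LOC100791780 (0.03, adjusted p = 0.93), LOC100802479 (0.02, adjusted p = 0.931) and the rank 19 member of gTMT2 (-0.03, adjusted p = 0.885) were not called.

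The direction of these changes was not spread evenly over both kinds of members. Of the 65, 49 either rose and were higher in Minsoy or fell and were higher in Archer, and 16 did the reverse. Such a split was not counted over all tested probe sets, so it is not read as particular to the members. In the recombinant lines alone 41 members were called (39.3% of all tested probe sets), 37 of the first kind and 4 of the second; without 3 arrays named below there were 49 (46.8% of all), 38 of the first kind and 11 of the second. The stage scores of the arrays spread widely at the same labelled length, and the ranges of the parents overlapped at every length. At 3.5 mm in 2007 the 2 highest Archer arrays scored -0.67 and -3.93 and the Minsoy arrays -1.08, -1.13 and 3.84, where higher means nearer to 5-6 mm seeds, and at 5-6 mm the ranges were 1.21 to 5.32 and 4.25 to 7.17. At 2 mm in 2007 the ranges were -5.94 to -5.70 and -5.97 to -5.39. At 3.5 mm in 2008 the Archer arrays ran from -1.14 to 2.51 and the Minsoy arrays from 0.45 to 2.40. The part of seed age in the members' parental differences was not tested. In 2008, 2 Minsoy arrays had stage scores against their labels, 2 mm replicate 1 at 5.85 and 5-6 mm replicate 1 at -2.16. Without these and the low yield 2 mm replicate 1, 69 members changed with length (66.2% of all), 38 rising and 31 falling (26.8% and 39.4% of all), 51 of the first kind and 18 of the second.

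Further properties of the samples are given because they touch these counts. Of the seed storage and maturation genes GY1, GY2, GM2S-1, LOX2, LOX3, KTI1, P34 and PM34, 8 of 8 tested rose with seed length and 0 were called between the recombinant lines. Their high minus low differences ran from -0.76 in PM34, the only one below 0, to 2.98 in P34, with 2.70 in GY1. The lack of a call thus does not show that the lines are alike in these genes. Of the seed coat genes HPS, Ep and SCB1, 0 were called between the lines with all arrays, where HPS stood at -3.74 (adjusted p = 0.0985) and Ep at 2.63 (adjusted p = 0.0634) high minus low; without the 2 arrays both were called (adjusted p = 0.0159 and 0.000119). Of the leaf and pod wall genes tested (VSPA, RCABETA, RCA11 and VLXB), VSPA was higher in the high yield line by 1.67 (adjusted p = 0.0375). The mean level of the leaf and pod wall list ran from 10.48 to 11.51 in the high yield arrays and from 9.94 to 11.06 in the low yield arrays, and that of the seed coat list from 9.74 to 12.41 and from 10.02 to 12.88. The 3′ minus 5′ signal of the actin control probe sets, a sign of RNA quality, ran from 1.22 to 3.07 in the high yield arrays, from 1.23 to 3.36 in the low yield arrays and from -0.81 to -0.06 in the parental arrays. At 3.5 mm it was lowest in replicate 2 of both recombinant lines, at 1.74 and 1.38. The part of tissue make-up and RNA quality in the line differences of the members was not tested.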

How the data were processed

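Total RNA of whole developing seeds was hybridized to Affymetrix soybean arrays, 1 per sample. The deposited values are log2 signals per probe set, made by the authors with GCRMA per the submitters' processing notes, version not given in the sources used here. The parents of 2007, the parents of 2008 and the recombinant lines appear to have been normalized apart: the lowest value is 1.959 in every parental array of 2007, 1.962 in every one of 2008 and between -1.56 and -1.52 in the recombinant arrays. Lines are therefore compared only within a set. GCRMA summarises several probes into 1 value and shrinks weak signals towards a floor, so small values and differences from them are inexact. The number of arrays limits the precision.

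From 37744 probe sets, 174 controls were left out. Tests covered the 26482 that reached a log2 of 5 in 3 or more arrays. The annotation gave 1 gene for 8677 of all probe sets. Gene order, chromosomes and older names came from the gene table of Glycine_max_v4.0. Product descriptions and sequences were not used here, so classes by product could not be formed. A linear model of 18 group means was fitted with limma 3.58.1 (R 4.3.3) to 54 arrays and 26482 probe sets (36 residual degrees of freedom), with eBayes and Benjamini-Hochberg adjustment at 0.05. Other steps used Python 3.11.15, pandas 2.3.3 and numpy 2.4.6. "High minus low" averages the 3 seed lengths; the change with length averages 6 combinations of line and year. Stage scores are means of 200 probe sets that rise minus 200 that fall between 2 and 5-6 mm in the parents of the other year (2008 for the arrays of 2007). On simulated data with known changes in the high against low comparison (50 of each size among 26482 probe sets), 60%, 80%, 98% and 100% were recovered at log2 changes of 0.5, 1, 2 and 4, and 7.14% of calls were false; that simulation had independent noise and no misplaced arrays.

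The members, the lists and the tests were chosen with earlier results of these data known. Named members are the 10 best ranked in each direction, the largest called differences and changes, members called at every length, those beside the boundary, and genes with several probe sets. The design text calls the replicates of 2007 independent samples, though of 1 row per line. Residuals of high and low yield arrays with the same replicate number correlated at 0.44, 0.51 and 0.26 at 3.5 mm. At 2 mm the correlations were -0.01, 0.27 and 0.15, and at 5-6 mm they were 0.06, -0.22 and -0.13. The highest values were thus at 3.5 mm, but whether the numbers pair the arrays was not tested. For 2008 the labels give shared planting blocks. Alternatives were other normalizations, filters, eBayes settings, array weights, the recombinant arrays alone, replicate blocks and leaving out each array.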

Additional observations from a re-analysis of the deposited data

Results flagged for a closer look

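The difference between the high and low yield lines varied with seed length in LOC547692, the only member of 100 for which limma's test of a difference by length passed the threshold (adjusted p = 0.00218, and 0.0129 without the 2 arrays that score like the other line). A share of 0.827% of all tested probe sets passed it too. With the recombinant arrays alone 0 members passed (limma, 6 at an unadjusted p under 0.05), and with a filter at log2 7 LOC547692 was not tested. This gene passed the signal filter only through high yield arrays at 3.5 mm. Its test thus rests partly on the values that admitted it and is given as a description. The high yield line exceeded the low yield line by 1.12 at 2 mm, 2.37 at 3.5 mm and 0.15 at 5-6 mm. In the parents of 2007 the Archer minus Minsoy difference at the same lengths was 2.07, 2.25 and 1.09, and in 2008 it was 0.79, 1.33 and 0.58, where most Minsoy arrays lay at or near the floor.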

How the results depend on the processing

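Over the alternatives, 306 counts stayed within 1.5 times of the one reported and 22 moved. Fitting the recombinant arrays alone, which leaves fewer residual degrees of freedom, gave 19 called members for high against low yield line, 5 at 2 mm, 1 at 3.5 mm, 0 by limma for a difference by length (6 at an unadjusted p under 0.05) and 448 of all probe sets. Array weights gave 52 members, 51 of them in the parental direction, then 64 at 2 mm (57 parental and 7 opposite), 45 at 3.5 mm, 5 at 5-6 mm, 32 by length, 66 changed with length in the recombinant lines and 8082 of all probe sets. Without the 2 arrays that score like the other line, 16 were called at 5-6 mm. A difference by length was called in 4 members without a filter and in 0 at a filter of log2 7 (12 at an unadjusted p under 0.05). Here and above, counts at an unadjusted p stand without a share of all tested probe sets, so nothing is read from them.

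Leaving out 1 array at a time gave 33 to 39 called members over all lengths, 8 to 24 at 2 mm, 16 to 26 at 3.5 mm, 0 to 9 at 5-6 mm, 1 to 4 by length and 1110 to 2131 of all probe sets. At 2 mm the count was 8 without high yield 2 mm replicate 1, 11 without its replicate 2, and 14 and 13 without low yield 2 mm replicates 2 and 3. By length it was 4 without low yield 3.5 mm replicate 2 and 2 without high yield 5-6 mm replicate 1. Changes with length numbered 63 to 67, and 33 to 45 in the recombinant lines. With a replicate block 36 members were called between the lines, 22 at 2 mm, 20 at 3.5 mm and 0 at 5-6 mm, and 66 and 40 changed with length; the block changed no other call count by over 1.5 times.

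Of the 100 members, 95 were kept under quantile normalization or median centring, 91 with the filter at log2 7, 73 to 99 without 1 parental array, 81 without the 2 Minsoy arrays of 2008 whose stage scores go against their labels, and 68 when medians replaced means. For single named members 1507 values kept their call, 10 gained one and 5 lost one, none with a changed sign. The 5 losses were with the recombinant arrays alone, for LOC100817540, the rank 28 member of LOC100819853 and the 3 members of LOC100784654; the cause was not tested beyond the fewer arrays.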
